A study of Mus musculus with 4 samples.

Results

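DNA replication genes were followed in the RNA of haematopoietic stem cell (HSC)-enriched cells, through 43 listed genes of the replication machinery and of entry into S phase. All 43 were rows of the deposited tables, which hold 23906 gene symbols. The rule takes the genes by name, and the list was drawn up with earlier results of these data known. The cells were LSK-SLAM cells (Lin-, Sca1+, cKit+, CD150+, CD48-) of BRE-GFP transgenic mice on a C57BL/6 background, in which a BMP-responsive element drives GFP, so that GFP reports BMP signalling at the moment of sorting and not in the past. There were 4 libraries, 1 per group: GFP+ and GFP- cells of the fetal liver (FL) at embryonic day 14, and GFP+ and GFP- cells of adult bone marrow (BM). All 4 groups carried the transgene, none was treated, and how many embryos or adult mice were pooled, or the age of the adults behind the RNA, is not given in the sources used here. With 1 library per group no difference between groups has a replicate check, and values are given without an error.

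A chromosome is copied from many origins. In G1 the origin recognition complex, CDC6 and CDT1 load the MCM2-7 helicase onto DNA, a step called licensing that geminin blocks after S phase has begun. Cyclin E with CDK2, and the factors that it releases from pocket proteins, the E2Fs, then turn on S phase, when MCM10, CDC45 and the GINS complex convert the loaded helicase into a moving one and the polymerases follow. Fetal liver HSCs are known as largely cycling cells and adult marrow HSCs as mostly quiescent ones, which makes this machinery a usual readout of proliferation in them.

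Values are FPKM, read fragments scaled to transcript length and to the size of the library, so that levels of different genes can be compared per length. Where 4 values of a gene follow each other, they stand in the order fetal GFP+, fetal GFP-, adult GFP+ and adult GFP- cells. The summed FPKM ranged from 541453 to 1000848.1 per library, and 12372 to 17345 genes were above 0, with fewer in the GFP+ than in the GFP- library of each tissue. All 43 replication genes were above 0 in all 4 libraries. The tissue labels fitted the fetal genes, since all 8 listed (Lin28b, Hmga2, Igf2bp1, Igf2bp2, Igf2bp3, Igf2, H19 and Dlk1) were more than 2-fold higher in FL than in BM cells within GFP+ and within GFP- cells. The transgene itself is not a row, so that which library of a tissue is GFP+ rests on the deposited labels alone. In the study's own plots of FPKM the libraries appear to stand in another order than in these labels. If a GFP label were exchanged, the direction of every GFP+ against GFP- difference in that tissue would turn. Id1, whose promoter is the source of the BMP-responsive element, had 109, 56.5, 70.4 and 17.5 FPKM. Of 7 genes of the stem cell gate and identity, 5 were lowest in the BM GFP+ library. There Procr, a stem cell surface gene, was listed at 0 and Kit had an FPKM of 22.2, against 60.8 to 113 for Procr and 76.6 to 150 for Kit in the other libraries. Slamf1, Hlf and Mecom were the other 3. Cd48, whose product was gated out, was highest there, at 51.4, 17.4, 267 and 126 FPKM, and so was Ly6a, which encodes the gate marker Sca1, at 19.7, 46.3, 286 and 146 FPKM. In the same library the 8 granulocyte genes summed to an FPKM of 57711, against 16947 in BM GFP- cells and 310 to 587 in the FL libraries. The 8 erythroid genes summed to 20564 there and to 904 to 3189 elsewhere, and 7 B cell genes to 3089 against 43.5 to 860. None of the granulocyte, erythroid, B cell, T cell or macrophage genes was at 0 in either BM library. The 6 hepatocyte genes summed to 327, 25.0, 13.3 and 5.93 FPKM, mostly through Alb and Afp at 140 and 149 FPKM in FL GFP+ cells, while Ttr was near level in the FL (3.65 and 2.85) and Fgb was listed at 0 in FL GFP+ cells. The part of such cells in the values below was not tested.

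Promoters of some of these genes hold a sequence feature that the rule did not use. E2F factors bind the letters TTTCCCGC, TTTGGCGC, TTTCGCGC and TTTGCCGC, which were searched on both strands in the 300 bases from 250 before to 50 after each RefSeq transcription start (build GRCm38.p6). The table held promoters of 34 of the 43 genes. For 13 of these (38.2%) at least 1 window held such letters, against 2.6% of 27025 genes, and counted by window the shares were 32.5% of 40 and 2.26% of 32851. The CCAAT box, which NF-Y binds, stood in a window of 21 of the 34 genes (61.8%), against 41.1% of all genes. Both motifs stood in 1 window for 8 genes, and for 0.962% of all windows. The 7 stretches shown hold these letters close to the start, and were taken from genes of licensing, the helicase, its activation, the clamp loader and the polymerases, from the steady Mcm5 to the variable Gins3. Each runs 5′ to 3′ on the strand of the gene, and capitals mark the E2F letters (with TTT at one end, or AAA where the match is on the other strand) and the CCAAT box (CCAAT, or ATTGG on the other strand).
Mcm5, chr8:75109356-75109508, plus strand: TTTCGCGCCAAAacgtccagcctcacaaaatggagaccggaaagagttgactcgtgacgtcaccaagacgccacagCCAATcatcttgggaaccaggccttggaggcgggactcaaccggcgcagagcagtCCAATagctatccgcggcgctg
Mcm6, chr1:128359706-128359825, minus strand: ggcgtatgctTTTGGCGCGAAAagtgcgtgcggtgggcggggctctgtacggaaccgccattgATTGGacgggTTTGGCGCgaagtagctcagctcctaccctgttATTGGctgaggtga
Orc1, chr4:108579334-108579453, plus strand: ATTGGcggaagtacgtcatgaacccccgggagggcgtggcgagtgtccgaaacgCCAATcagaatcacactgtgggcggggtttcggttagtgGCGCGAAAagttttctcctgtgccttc
Cdc6, chr11:98908013-98908150, plus strand: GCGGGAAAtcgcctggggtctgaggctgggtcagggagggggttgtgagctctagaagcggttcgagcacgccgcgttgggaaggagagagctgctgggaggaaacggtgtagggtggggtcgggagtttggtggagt
Gins3, chr8:95633439-95633558, plus strand: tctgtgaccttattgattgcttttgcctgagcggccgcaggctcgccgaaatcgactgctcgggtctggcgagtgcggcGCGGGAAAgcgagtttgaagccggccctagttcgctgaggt
Rfc3, chr5:151651201-151651328, minus strand: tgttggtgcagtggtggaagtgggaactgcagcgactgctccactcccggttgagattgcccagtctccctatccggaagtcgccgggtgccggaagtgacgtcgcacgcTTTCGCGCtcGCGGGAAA
Pola1, chrX:93632156-93632293, minus strand: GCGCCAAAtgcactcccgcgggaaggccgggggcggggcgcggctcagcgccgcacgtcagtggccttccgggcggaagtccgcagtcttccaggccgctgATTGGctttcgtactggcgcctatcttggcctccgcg
In Mcm6 and Mcm5 matches on opposite strands overlap, giving TTTGGCGCGAAA and TTTCGCGCCAAA. Some CCAAT boxes lie in the window but outside the stretch shown. By position from the start, these are at -144 to -140 and -124 to -120 in Gins3, -229 to -225 in Rfc3, and 7 to 11 in Mcm5. A match in these windows is a description of letters and not a measured binding site. The levels of the 13 genes with the letters were no steadier than those of the 21 without, with a median ratio of the highest to the lowest library of 1.78 and 1.75.

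Replication genes were among the steadier genes of these libraries. Their median was 71.6, 70.7, 71.1 and 71.4 FPKM. For 26 of the 43 (60.5%) the highest library was at most 2 times the lowest, against 19.6% of the 13609 genes that reached 1 FPKM in a library. With an FPKM of at least 10 required, the shares were 26 of 42 and 27.7%. The median ratio of the highest to the lowest library was 1.79 for the replication genes and 4.41 for all genes. All 6 MCM helicase genes and 9 of 10 genes of the clamp, its loader, the single-strand binding protein and flap processing stayed within 2-fold, but only 2 of 8 polymerase and primase genes and none of the 3 regulators of S phase entry did (0 of 3). The scale mattered here. After scaling all libraries to equal FPKM totals, 13 of 43 stayed within 2-fold against 17% of all genes. The total was highest in the BM GFP+ library. Replication genes took 0.352% of its summed FPKM, against 0.523% to 0.634% of the other libraries, and the 8 granulocyte genes took 5.77% of it.

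**Figure D1:**
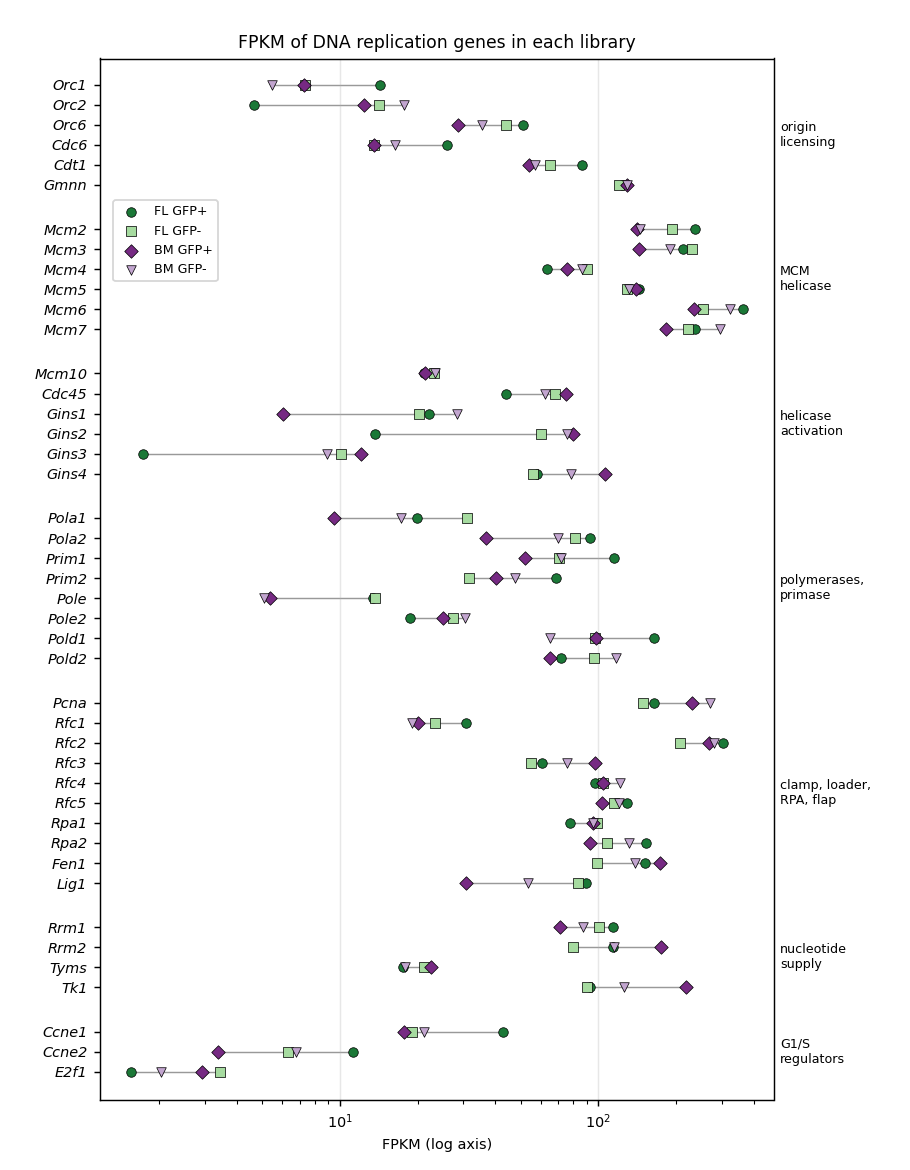
FPKM (log axis) of the 43 DNA replication genes, in rows grouped by role, with 1 marker per library and a grey line from the lowest to the highest. The 4 markers of most genes lie close together, as for Mcm5 and Gmnn, while Gins3, Gins2 and Orc2 have a low FL GFP+ marker and Gins1 a low BM GFP+ one.

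Licensing genes came first in the order of the cycle. Orc1, the ATPase subunit of the origin recognition complex, had 14.3, 7.30, 7.26 and 5.48 FPKM. Orc2, a core subunit, had 4.66, 14.2, 12.4 and 17.8 FPKM. The FL GFP+ library was thus the highest for Orc1 and the lowest for Orc2. For Orc6, the smallest subunit, the values were 51.1, 44.0, 28.6 and 35.4, with both FL libraries above both BM libraries. Cdc6, the loading ATPase, had 26, 13.5, 13.6 and 16.3, so that only FL GFP+ cells stood apart, by 1.92-fold from FL GFP- cells. Cdt1, which brings the helicase to the origin, had 86.3, 65.2, 54.1 and 56.9. Gmnn, which encodes the CDT1 inhibitor geminin, had 124, 120, 129 and 129. It was the steadiest of the 43, with 1.07-fold between its highest and lowest library, and the highest of the licensing genes in each library.

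The MCM helicase genes were among the highest of the machinery and kept an order among themselves. Mcm2 had 237, 193, 142 and 145 FPKM. Mcm3 had 212, 230, 143 and 190. Both were higher in each FL than in each BM library, by less than 2-fold. Mcm4 had 63.4, 90.6, 75.7 and 86.8, Mcm5 had 144, 129, 140 and 131, and Mcm7 had 237, 223, 183 and 295. Mcm6 had 362, 254, 234 and 322. Although the proteins form a ring with 1 copy of each, their transcripts were not at equal FPKM. Mcm4 was the lowest, Mcm5 the next and Mcm6 the highest in all 4 libraries, and Mcm6 exceeded Mcm4 by 5.72-fold, 2.8-fold, 3.09-fold and 3.71-fold. No MCM helicase gene passed 2-fold in any comparison of the deposited values (0 of 6).

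The genes that activate the helicase held the largest differences. Mcm10, needed to set the loaded helicase in motion, had 21.1, 23.1, 21.3 and 23.3 FPKM, and Cdc45, a part of the moving helicase, had 44.0, 68.2, 74.9 and 62.1. Gins1 had 22.1, 20.2, 6.03 and 28.4. Its BM GFP+ value was 4.71-fold below that of BM GFP- cells, while the other 3 libraries lay close together. Gins2 had 13.7, 59.9, 80.1 and 76.0, and Gins3 had 1.73, 10.1, 12.1 and 8.93. Both were lowest in FL GFP+ cells, by 4.36-fold for Gins2 and 5.83-fold for Gins3 against FL GFP- cells. Gins4 had 57.8, 55.8, 106 and 78.7 and was higher in both BM than in both FL libraries. The 4 GINS subunits form a complex of 1 copy each, yet the highest exceeded the lowest by 33.4-fold, 5.92-fold, 17.5-fold and 8.81-fold. The widest spreads were thus in the GFP+ library of each tissue, and came from Gins3 in the FL and from Gins1 in the BM.

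**Figure D2:**
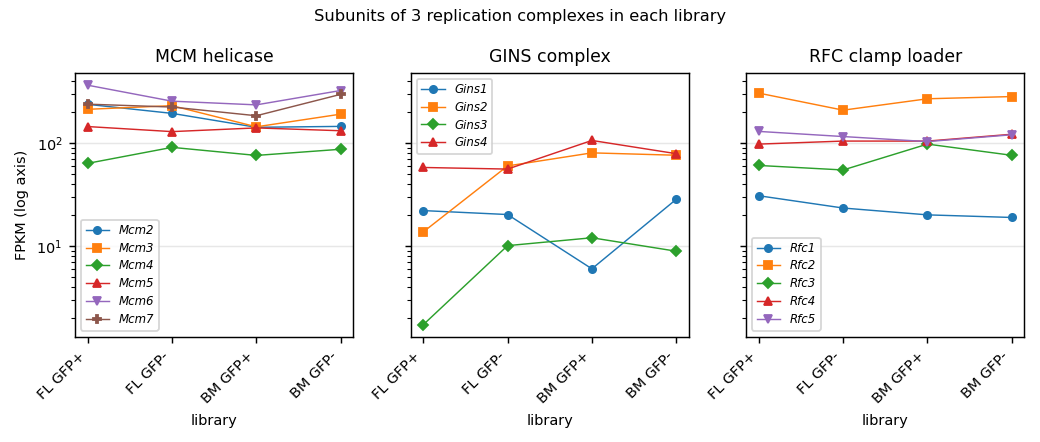
FPKM (log axis) of the subunit genes of the MCM helicase, the GINS complex and the RFC clamp loader in the 4 libraries, with lines joining the values of 1 gene. The MCM and RFC genes keep most of their order, with Mcm4 and Rfc1 lowest throughout, whereas Gins2 and Gins3 dip in FL GFP+ and Gins1 in BM GFP+ cells.

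Polymerase and primase genes included several that were higher in the FL. Pole, the catalytic subunit of the leading-strand polymerase, had 13.5 and 13.6 FPKM in the fetal libraries, against 5.36 and 5.09 FPKM in the adult ones. It was the only one of the 43 past 2-fold between the tissues within both fractions, at 2.52-fold in GFP+ and 2.68-fold in GFP- cells. Pola1, the catalytic subunit of the polymerase that starts each strand, had 19.9, 31.0, 9.49 and 17.2, and its partner Pola2 had 93.1, 81.1, 36.8 and 69.6. Both were higher in the FL libraries, and lowest in BM GFP+ cells. Prim1, the catalytic primase subunit, had 115, 70.7, 51.9 and 71.4. Prim2, its large subunit, had 68.5, 31.7, 40.1 and 47.5. FL GFP+ cells were highest for both. Pold1, the catalytic subunit of the lagging-strand polymerase, had 163, 97.3, 97.6 and 65.1, whereas its accessory subunit Pold2 had 71.6, 95.8, 65.1 and 117. Pold1 was higher and Pold2 lower in GFP+ cells of both tissues, each by less than 2-fold. Pole2, the accessory subunit of the leading-strand enzyme, had 18.7, 27.4, 25.0 and 30.6.

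Genes of the sliding clamp and of lagging-strand processing were mostly level. Pcna, the clamp, had 163, 149, 229 and 270 FPKM, higher in both BM libraries. Of the clamp loader, Rfc2 was the highest gene in all 4 libraries, from 208 to 304, and Rfc1, the large subunit, was the lowest, from 19 to 30.8. Rfc3, Rfc4 and Rfc5 ranged from 54.7 to 97.4, from 97.4 to 121 and from 103 to 129. Rpa1 and Rpa2, subunits of the single-strand binding protein, ranged from 77.9 to 98.5 and from 92.8 to 154. Fen1, which cuts the flaps of Okazaki fragments, had 152, 98.95, 173 and 139. Lig1, the ligase that joins these fragments, had 89.6, 83.7, 30.8 and 53.3. It was the 1 gene of this group past 2-fold between any libraries, and its lowest value was in BM GFP+ cells.

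Nucleotide supply genes were highest in BM GFP+ cells with the exception of Rrm1. Rrm2, the cell cycle-regulated subunit of ribonucleotide reductase, had 113, 79.6, 175 and 115 FPKM. Tk1, thymidine kinase, had 92.7, 90.2, 218 and 126. The order of the libraries was the same for both, and also for Gins4 and Rfc3, among the 10 of the 43 genes that were highest in BM GFP+ cells. Rrm1, the other reductase subunit, had 114, 101, 71.1 and 86.9, the reverse order by tissue. Tyms, thymidylate synthase, had 17.6, 21.2, 22.4 and 17.9. Its pseudogene Tyms-ps is a row of its own, at an FPKM of 0.0495 to 0.221, so few reads were assigned to it.

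The regulators of S phase entry included the gene with the lowest FPKM. Ccne1, a cyclin E gene, had 42.7, 19, 17.7 and 21.2 FPKM. Ccne2, the other, had 11.2, 6.30, 3.38 and 6.74. FL GFP+ cells were thus highest for both, and for Ccne1 the other libraries lay close together. E2f1 had 1.55, 3.43, 2.93 and 2.04, the lowest of the 43 genes in every library. In bulk RNA, fewer cells in S phase and less RNA per cell cannot be told apart for any of these genes.

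GFP+ and GFP- cells of the FL were compared to ask whether replication genes follow BMP activation in the fetus. By the fold used in the study's methods, an FPKM in one library more than 2 times that in the other, 2 of 43 were higher in GFP+ cells (Prim2 at 2.16-fold and Ccne1 at 2.25-fold) and 4 were lower (Orc2 at 3.04-fold, E2f1 at 2.21-fold, Gins2 and Gins3). Of the 12134 genes that reached 1 FPKM in either library, 17.9% were higher and 26.8% lower. The replication genes were thus past 2-fold less often than genes at large, at 14% against 44.7% in either direction. The calls of Prim2 and Ccne1 were lost after scaling to equal totals or equal upper quartiles (0 higher), and the 4 lower genes stayed. With an FPKM of at least 10 required in either library the shares were 11.9% of 42 and 29.8%.

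In the BM the same comparison gave 0 genes higher and 1 lower in GFP+ cells, Gins1. All genes gave 21.1% higher and 19.6% lower of 12385, so that 2.33% of the replication genes were past 2-fold against 40.7% of all genes. With 10 FPKM required in either library the shares were 2.56% of 39 and 29.3%. Just inside the threshold were Ccne2 (1.99-fold lower in GFP+ cells), Pola2 (1.89-fold lower), Pola1 (1.81-fold lower) and Pold2 (1.8-fold lower). Tk1 was 1.73-fold higher. Scaled to equal totals, 7 were lower in GFP+ cells (Gins1, Mcm7, Pola1, Pola2, Pold2, Lig1 and Ccne2), and scaled to equal upper quartiles 3 were (Gins1, Pola2 and Ccne2). Of all genes, 27.4% and 21% were lower under these 2 scalings. The BM GFP+ library is also the one with the granulocyte, erythroid and B cell sums given above, and their part in these ratios was not tested.

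The study's methods call a gene high in a fraction only where both tissues pass this fold. No replication gene was past 2-fold the same way in FL and BM (0 of 43 higher and 0 of 43 lower in GFP+ cells), where 3.45% of 10910 genes were higher and 6.48% lower in both. The log2(FPKM + 1) ratio had the same sign in both tissues for 19 of 43 genes, or 44.2%, against 47.2% of all genes. A limma fit of tissue and GFP together to 11707 genes in the 4 libraries, which leaves 1 residual degree of freedom, gave 0 of 43 genes with a Benjamini-Hochberg adjusted p under 0.05 for GFP, against 0.111% of all genes. At an unadjusted p under 0.05 it gave 0 of 43 and 6.25%. Pold1 had the smallest adjusted p in that limma fit, 0.876, with a log2 fold change of 0.66 (standard error 0.34) and a higher value in GFP+ cells of both tissues. A p above the threshold with 1 residual degree of freedom does not show that the fractions are alike. That residual is how far the GFP difference is unlike in FL and BM, and not a spread between replicates. A gene whose GFP difference is unlike in FL and BM therefore has a large residual in this fit. The same holds for the tissue effect below.

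**Figure D3:**
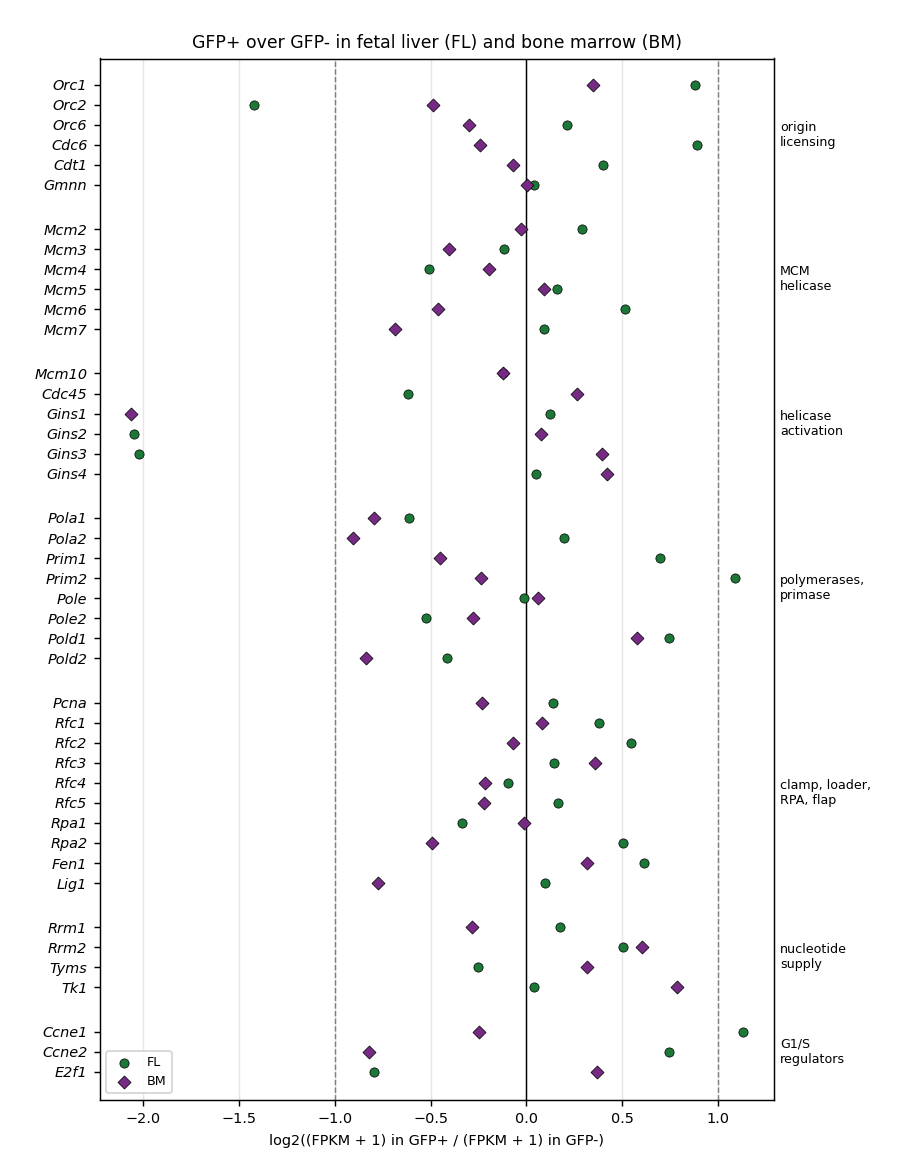
Log2 ratio of FPKM + 1 in GFP+ over GFP- cells for the 43 genes, in FL (circles) and BM (diamonds), with dashed lines at a ratio of 2-fold either way. Most points lie between the dashed lines, while Gins2, Gins3 and Orc2 lie beyond the left line in FL, Prim2 and Ccne1 beyond the right line in FL, and Gins1 beyond the left line in BM.

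FL and BM cells were compared to ask whether fetal and adult cells of the same BMP status differ in this machinery. Within GFP- cells only Pole was past 2-fold, higher in the FL, and no gene was past it in the other direction (1 and 0 of 43). Of 12703 genes, 19.3% were higher and 18.6% lower. Genes past 2-fold were thus 2.33% of the replication genes and 37.9% of all genes, or 2.5% of 40 and 26.3% where an FPKM of at least 10 was required. Scaling to equal totals gave 5 higher in the FL (Pole, Pola1, Pold1, Lig1 and E2f1), and equal upper quartiles gave 2 (Pole and Pola1). The rescaled shares of all genes past 2-fold are not given here, so these counts are not shown to exceed the background. The median log2 ratio of all genes was 0.359 and 0.116 under these scalings, against -0.038 as deposited.

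Within GFP+ cells the differences were wider. In the FL 8 of 43 were higher (Gins1 at 3.66-fold, Ccne2 at 3.32-fold, Lig1 at 2.91-fold, Pola2 at 2.53-fold, Pole, Ccne1 at 2.41-fold, Prim1 at 2.21-fold and Pola1 at 2.09-fold) and 4 were lower (Gins3 at 6.95-fold, Gins2 at 5.83-fold, Orc2 at 2.66-fold and Tk1 at 2.35-fold). Of 12120 genes, 25.1% were higher and 33.6% lower, so that 27.9% of the replication genes were past 2-fold against 58.7% of all genes, or 28.6% of 42 and 50.7% where 10 FPKM was required. The higher genes were 18.6% of the replication genes, near the background, and the lower ones 9.3%. Equal totals gave 21 higher and 2 lower, and equal upper quartiles 9 and 4. The rescaled shares of all genes past 2-fold are not given here, so these counts are not shown to exceed the background. The median log2 ratio of all genes was 0.417 and -0.111 under these scalings, against -0.154 as deposited.

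**Figure D4:**
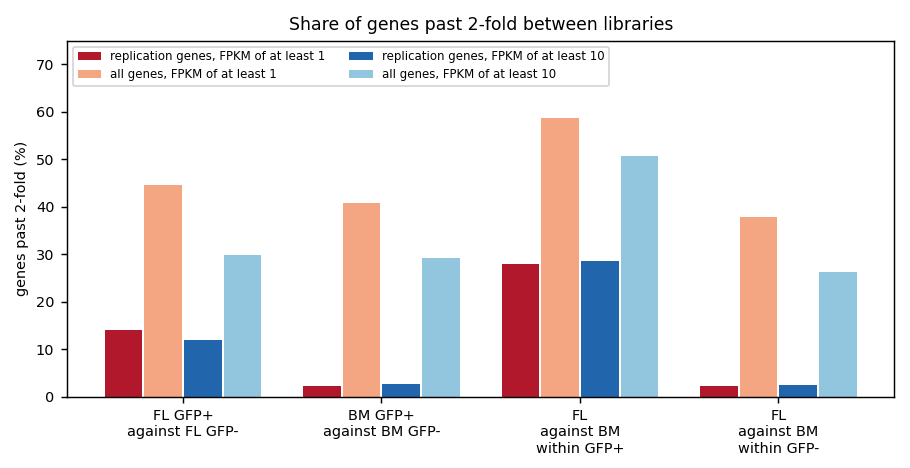
Percentage of genes past 2-fold in either direction in the 4 comparisons, for the 43 replication genes (dark bars) and all genes (light bars), reaching 1 FPKM (red) or 10 FPKM (blue) in either library. The dark bar is below the light bar of the same colour in all 4 comparisons, and is highest, at 27.9%, for FL against BM within GFP+ cells.

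Some genes kept an order by tissue in both fractions. Both FL libraries were above both BM libraries for 11 of 43 genes (25.6%, against 19.9% of all 13609), and both BM above both FL libraries for 7 (16.3% against 26.2%). Equal totals gave 23 (53.5% against 33.9%) and 2 (4.65% against 15.8%), and equal upper quartiles 17 (39.5% against 23.1%) and 6 (14% against 23.6%). The former were Orc1, Orc6, Cdt1, Mcm2, Mcm3, Pola1, Pola2, Pole, Rfc1, Lig1 and Rrm1, which kept this order under both other scalings. Of the latter (Gmnn, Gins2, Gins4, Pcna, Rfc3, Rrm2 and Tk1), only Gins4 and Tk1 kept theirs with equal totals. In the limma fit with GFP as a block, 0 of 43 had an adjusted p under 0.05 for tissue, against 2.46% of all genes, and at an unadjusted p under 0.05 it gave 3 of 43 against 17.2%. These were Lig1, with a limma log2 fold change of 1.08 for FL over BM (standard error 0.41, adjusted p = 0.23), Gins2 (-1.40, standard error 0.55, adjusted p = 0.238) and Tk1 (-0.85, standard error 0.35, adjusted p = 0.26).

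**Figure D5:**
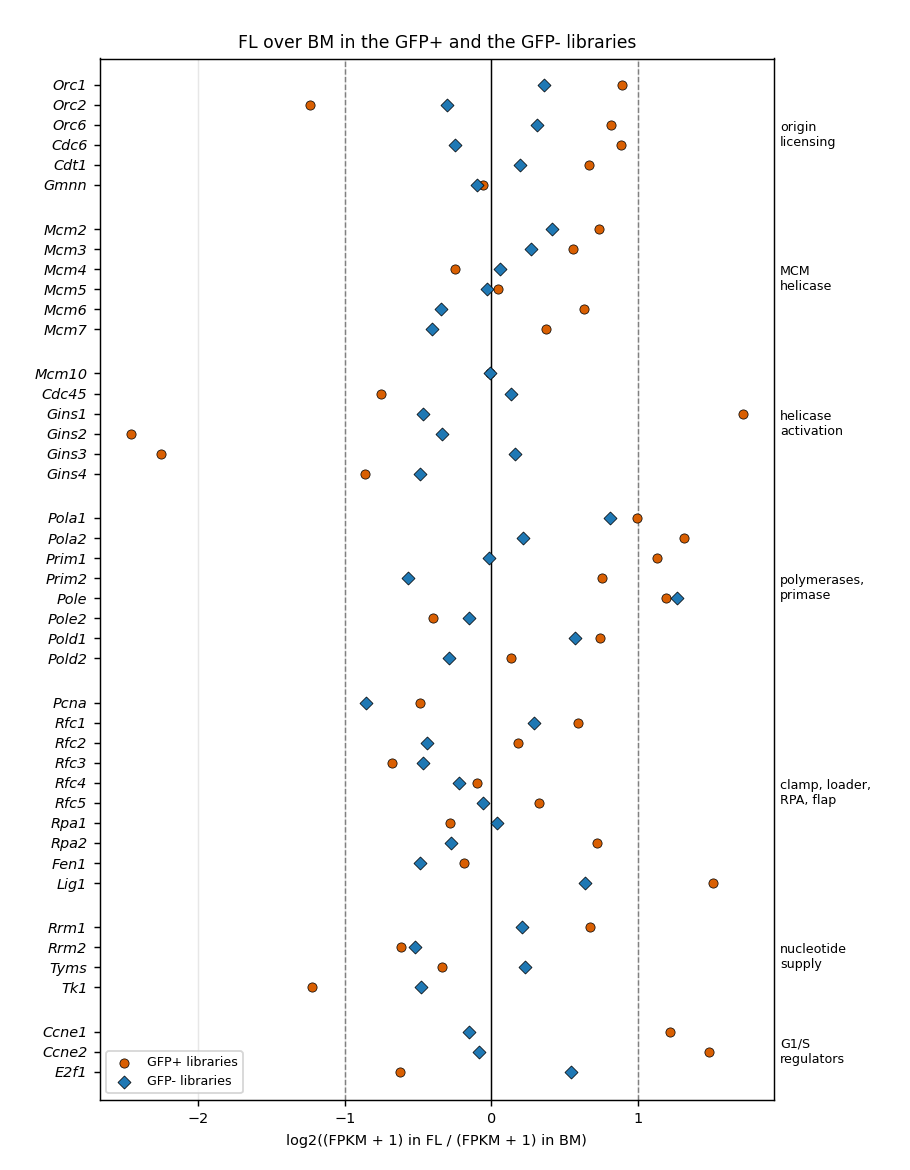
Log2 ratio of FPKM + 1 in FL over BM cells for the 43 genes, in GFP+ (circles) and GFP- (diamonds) libraries, with dashed lines at 2-fold either way. Only the diamond of Pole lies beyond a dashed line, whereas 11 circles do, Gins1 farthest to the right and Gins2 farthest to the left, and the circle of Pola1 lies just inside it on this scale.

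The scalings moved the median log2 ratio of all genes, most between the GFP+ libraries, from -0.15 as deposited to 0.42 with equal totals, so the level of the group is given relative to it. Relative to that median, the median of the replication genes was 0.084 higher in GFP+ than in GFP- cells of the FL as deposited, 0.070 with equal totals and 0.071 with equal upper quartiles. In the BM it was lower in GFP+ cells, at -0.32, -0.35 and -0.32 in the same order. Between tissues it was 0.48, 0.53 and 0.48 higher in the FL within GFP+ cells, and -0.019, 0.011 and -0.007 within GFP- cells. These values are over genes that reached 1 FPKM in either library. Both comparisons with a difference above 0.1 included the BM GFP+ library, and the GFP- libraries differed by less than 0.02 under all 3 scalings. With 10 FPKM required, the deposited medians of replication and all genes were 0.140 and 0.227 between the FL fractions. The sign of that difference thus turned. They were -0.218 and 0.176 between the BM fractions, 0.348 and -0.073 between the GFP+ libraries, and -0.078 and -0.150 between the GFP- libraries.

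The wider pathway, described by lists of genes that are not among the 43, was described in the same way. Of 37 further replication factors, 35.1% stayed within 2-fold in all 4 libraries, between the 60.5% of the 43 genes and the 19.6% of all genes. So did 33.3% of 12 E2F, partner and pocket protein genes, and 8 of 15 mitotic genes (53.3%). The median ratio of the highest to the lowest library was 1.82 for the mitotic genes, near the 1.79 of the 43. Steadiness was thus not particular to the 43. Of these 37, 3 were more than 2-fold higher and 6 lower in GFP+ than in GFP- cells of the FL, and 2 were higher and 4 lower in the BM. In either direction these were 24.3% and 16.2%, against 44.7% and 40.7% of all genes. Between tissues 10 of 36 were higher in the FL and 7 lower within GFP+ cells, and 5 of 37 were higher and 1 lower within GFP- cells, or 47.2% and 16.2% in either direction against 58.7% and 37.9% of all genes. Mcm8, a relative of the MCM genes that acts in recombination, had 0.638, 9.98, 0.177 and 10.8 FPKM. It and Recql4, a helicase gene (0, 5.55, 1.2 and 2.56 FPKM), were the 2 of the 37 more than 2-fold lower in GFP+ cells of both tissues. Of 10910 genes, 6.48% were lower in both. Dnmt1 and Uhrf1, which copy DNA methylation behind the fork, had 167, 106, 64.0 and 57.3, and 172, 127, 104 and 74.7. Both were higher in each FL than in each BM library. Cdk2, the partner of cyclin E, had 121, 107, 70.6 and 99.2, and Ccna2, cyclin A2, had 84.4, 108, 90.0 and 83.5.

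Of 12 E2F, partner and pocket protein genes, 7 were past 2-fold between the fractions of the FL (58.3%, against 44.7% of all genes) and 5 between those of the BM (41.7%, near the 40.7% of all genes). E2f2, an activating member, had 17.1, 1.04, 19.4 and 3.31 FPKM, and was the only one of the 12 more than 2-fold higher in GFP+ cells of both tissues, where 3.45% of all genes were. E2f5, of the repressive class, was listed at 0 in FL GFP+ and had 16.1, 2.25 and 8.99 in the other libraries. It was more than 2-fold lower in GFP+ cells of both tissues, as were 6.48% of all genes. Rb1, the retinoblastoma gene, was listed at 0 in FL GFP+ and at 1.39 to 1.87 elsewhere, while the pocket protein gene Rbl1 was level, at 16.3, 20.1, 15.7 and 19.9. Of 15 mitotic genes, 2 were past 2-fold between the fractions of the FL, 4 between those of the BM, 4 between the tissues within GFP+ cells and none within GFP- cells (0 of 15). These shares, 13.3%, 26.7%, 26.7% and 0%, were below those of all genes, 44.7%, 40.7%, 58.7% and 37.9%. As deposited, 9 of the 15 had a log2 ratio of GFP+ over GFP- cells below 0 in the FL. There Bub1 was 4.16-fold and Plk1 4.91-fold lower. Between the BM fractions 13 had a ratio above 0. Shares of all genes by sign are not given here, and some signs depended on the scale. With equal totals Top2a turned from 0.19 to -0.25 and Cdk1 from 0.03 to -0.42 between the BM fractions, while Mki67 stayed at 1.46. Cdk1 also turned between the FL fractions, from 0.12 to -0.13. Deposited medians of the 15 and of all genes were -0.266 and 0.053 between the FL fractions. Between the BM fractions they were 0.469 and 0.119. In the BM Plk1 was 2.69-fold higher, but Bub1 was 11.4-fold lower. Bub1 was thus the 1 of the 15 more than 2-fold lower in GFP+ cells of both tissues, where 6.48% of all genes were. Cdk1 had 60.1, 55.2, 54.6 and 53.4, as level as the steadiest replication genes, and Mki67, the proliferation marker, had 21.0, 10.8, 30.6 and 7.45, with a ratio of 1.96-fold in the FL, inside the threshold, and of 4.11-fold in the BM.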

How the data were processed

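LSK-SLAM cells of BRE-GFP mice were sorted by GFP, RNA was made into SMARTer cDNA libraries and sequenced on a HiSeq2000. Per the study's methods the authors aligned the reads with TopHat and Bowtie, estimated FPKM by Cufflinks 2.2.1 corrected them in Cuffquant for bias and for multiply mapped reads, and scaled all 4 libraries together in Cuffnorm by the geometric method. The deposited unit is thus FPKM, 1 value per gene symbol and library. The build is NCBI37/mm9 in the study's methods and mm10 in the submitters' processing notes, and no gene coordinate from the files was needed. The study's methods give the unique mapped reads of each library. The files hold no counts per gene, so the number of reads behind a value and its counting error are not given.

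Groups follow the deposited labels, and the GFP label could not be checked from the files. The genes named are the 43 listed ones, plus lists of further replication factors, E2F and pocket protein genes, mitotic genes and cell type markers. Members and lists were chosen with earlier results of these data known. Between 2 libraries a gene was called past 2-fold when its FPKM in one was more than 2 times that in the other, among genes that reached 1 FPKM in either, and log2 ratios used a pseudocount of 1. Tissue and GFP effects were fitted with limma 3.58.1 in R 4.3.3 (additive model, eBayes with trend, Benjamini-Hochberg adjustment) on log2(FPKM + 1) of genes that reached 1 FPKM in 2 or more libraries. Other steps used Python 3.11.15, numpy 2.4.6, pandas 2.3.3 and matplotlib 3.10.9. Alternatives were folds of 1.5 and 4, other filters, a pseudocount of 0.1, equal FPKM totals, equal upper quartiles of genes above 0 in all 4 libraries, and limma without trend or block. The count within 2-fold over all 4 libraries and its alternatives were chosen after seeing the data. The code was tested on simulated data. Promoter sequences are from RefSeq (GRCm38.p6), and 9 of the 43 genes had no entry. Protein sequences were not used here, and 1 gene each of the further replication factors and the stem cell markers is not reported here.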

Additional observations from a re-analysis of the deposited data

Results flagged for a closer look

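Among the 107 replication, E2F family and mitotic genes listed, 3 had a GFP+ to GFP- ratio past 2-fold in both tissues and in opposite directions. The share of all genes with this pattern was not counted, so the 3 genes are not shown to be more than the background. Past 2-fold in either direction were 44.7% of all genes in the FL and 40.7% in the BM. None of the 3 genes is among the 43 described above, and with 1 library per group the difference between the tissues was not tested. On the log2(FPKM + 1) scale, the adult ratio minus the fetal ratio was 3.98 for E2f7, a repressive E2F gene, with 0.0869, 6.15, 4.69 and 1.38 FPKM in the fetal GFP+, fetal GFP-, adult GFP+ and adult GFP- libraries. It was 3.62 for Plk1, a mitotic kinase gene, with 13.4, 65.8, 105 and 39.1 in the same order. It was -2.97 for E2f3, an activating E2F gene, with 12.5, 2.78, 1.22 and 3.87.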

How the results depend on the processing

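Filters on low FPKM left all counts of the 43 genes past 2-fold within 1.5 times, and a pseudocount of 0.1 left the 4 median log2 ratios unchanged at 2 decimals. A fold of 1.5 gave 8 genes higher in GFP+ cells of the FL, against 29.1% of all genes. It gave 2 higher and 7 lower in GFP+ cells of the BM, against 32.4% and 26.5% of all genes. Between tissues it gave 19 higher and 9 lower in FL than BM within GFP+ cells, and 4 and 1 within GFP- cells. Shares of all genes between tissues at other folds are not given here. Within a fold of 1.5 in all 4 libraries were 9 genes. A fold of 4 gave 0 higher and 2 lower in GFP+ cells of the FL, 0 higher and 2 lower in FL within GFP+ cells, 0 higher within GFP- cells, and 40 within that fold in all libraries. Equal totals gave 0 higher in GFP+ cells of the FL, 7 lower in those of the BM, 21 higher and 2 lower in FL within GFP+ cells, 5 higher within GFP- cells, and 13 within 2-fold in all libraries. Equal upper quartiles gave 0, 3 lower in the BM and 2 higher within GFP- cells. The median log2 ratio turned from 0.14 to -0.12 (equal totals) and -0.09 (equal upper quartiles) between the FL fractions, and from -0.06 to 0.37 and 0.11 between the GFP- libraries. It went from -0.20 to -0.65 and -0.30 between the BM fractions and, with equal totals, from 0.33 to 0.95 between the GFP+ libraries. These scalings shift all genes of a library together, which is how they move the medians. Leaving out 1 library in turn gave 28 to 36 genes within 2-fold in the remaining ones, with the highest count without FL GFP+ cells. Taking a library away can only keep or raise the 26 found over all 4, so this does not check that count. Limma called 0 of the 43 genes under all its alternatives, with smallest adjusted p-values of 0.0554 to 0.405 for tissue and 0.661 to 1 for GFP, while its calls over all genes went from 288 for tissue to 0 (no trend), 80 (pseudocount 0.1), 176 (no block) and 1003 (1 FPKM in 1 library), and from 13 for GFP to 0, 1, 4 and 171. No paired analysis of replicates was possible because each group had 1 library. Limma with both factors sets GFP within tissue, and without the second factor its calls among the 43 stayed at 0. Without counts per gene, the number of reads behind a low FPKM such as that of Gins3 or E2f1 is not given.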
